A study of Mus musculus with 2 samples.

Results

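Genes of the machinery that brings secretory proteins into the endoplasmic reticulum (ER) and attaches N-linked sugars to them were examined in pancreatic islets of PERK knockout and PERK wild-type mice at 2 days after birth. The set was fixed by name: 37 genes for the signal recognition particle (SRP) and its receptor, the translocon, the signal peptidase, the oligosaccharyltransferase and enzymes that build its sugar donor. Of these, 34 had an array probe set assigned to that gene alone, and all 34 were above the signal floor described below on both arrays, out of 8133 such genes among 12393 in the series. Probe sets for Sec61g and Srp54a were shared with other genes and gave no value, and no probe set was named for Srp72.

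The PERK knockout group was 1 array of islet RNA from mice lacking PERK, an ER kinase encoded by Eif2ak3 that phosphorylates the translation factor eIF2 alpha when unfolded protein accumulates. The knockout label names no allele, strain or sex. The PERK wild-type group was 1 array of islet RNA, with mixed strains and mixed sexes on its label. In both, islets were isolated with collagenase P and biotin-labelled cRNA was hybridised to Affymetrix mouse 430A arrays, and pooling of pups is not given in the sources. With 1 array per genotype there was no replicate spread and no test, so every difference below compares these 2 RNA preparations and not genotypes. In whole islets, fewer cells of a type and less RNA per cell cannot be told apart.

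Secretory proteins such as insulin carry an N-terminal signal peptide. SRP binds the peptide as it leaves the ribosome and delivers the ribosome, through the SRP receptor, to the Sec61 channel in the ER membrane. The signal peptidase then cuts the peptide off, and the oligosaccharyltransferase moves a preassembled sugar tree from the lipid dolichol onto asparagines of the entering chain. Beta cells, which release large amounts of insulin, and acinar cells, which release digestive enzymes, both depend heavily on this route.

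Signals of the machinery were slightly lower in the knockout preparation across its complexes, without a large difference in any gene. Signals are linear intensities in arbitrary units, and each ratio is log2 of knockout over wild type from the brightest probe set of a gene. The median over the 34 members was -0.19, which is 1.14-fold lower, beside 0.03 over all 8133 measured genes. A ratio below 0 was found for 27 of the 34 members (79.4%), where 45.1% of all measured genes lay below 0. No member was at least 2-fold lower or higher, limits passed by 0.652% and 0.516% of measured genes. At the smaller limit of 0.32 on the log2 scale, 5 members (14.7%) were lower, against a background of 10.9%, and Alg2 alone was higher, against 16.5%. A further 8 members lay between 1.2-fold lower and that limit, so the count of 5 turns on small changes of it. At least 1.2-fold lower were 13 of the 34 members, against 14.6% of all measured genes. At the limit of 0.32, the share was not above its background with quantile normalisation (11.8% of members, against 12.6%) or loess (11.8%, against 12.9%). Nor was it with the median over a gene's measured probe sets (8.82%, against 9.57%). Ssr1 was the only member at least 1.5-fold lower, against 2.95% of measured genes, and 0 members were 1.5-fold higher, against 4.19%. Ssr1 only just reached the lower limit, at -0.59 on the log2 scale. It missed that limit with quantile normalisation (-0.52), with loess (-0.55) and with the median over its measured probe sets (-0.31).

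The error available came from the disagreement between probe sets of the same gene. For a single probe set it was an SD of 0.26 on the log2 scale, over 2597 genes. It does not cover animals or RNA preparations. Members were brightly measured as a group, and 30 of them were in the brightest 25% of measured genes. These 30 had a median ratio of -0.21, and 24 of them were below 0, against 55.6% of all genes as bright, whose median was -0.03. By at least the SD of 0.26, 14 of the 30 members were lower, against 16.6% of genes as bright, and Alg2 was higher, against 10.6%. The other 15 lay within the SD.

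**Figure D1:**
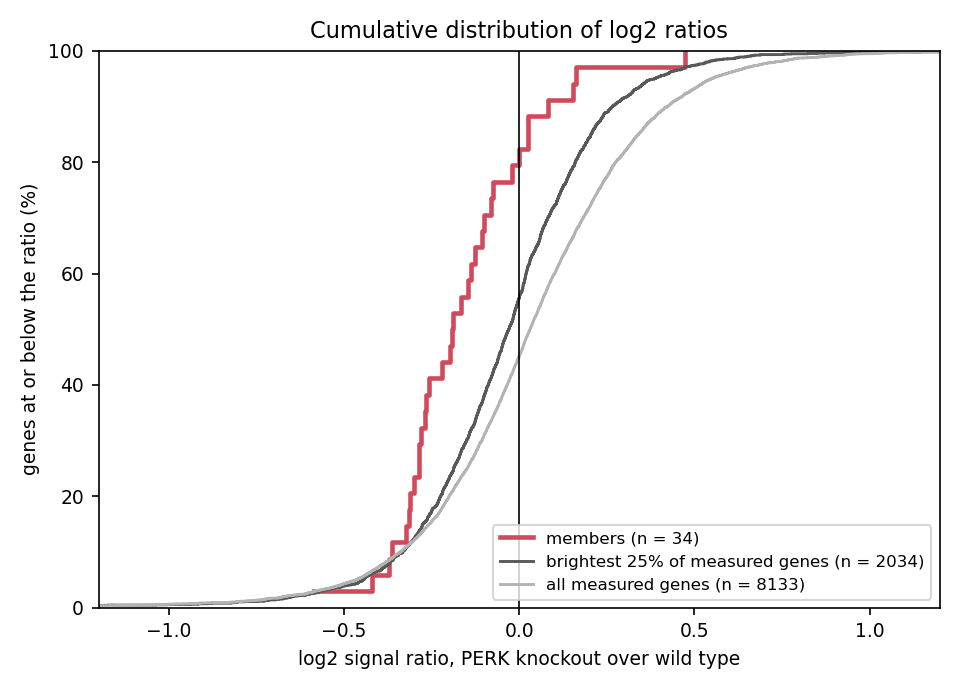
Cumulative share of genes (vertical axis, percent) at or below each log2 ratio of knockout over wild-type signal (horizontal axis), for the 34 members, the brightest 25% of measured genes and all 8133 measured genes. The members' curve crosses 0 at 79.4%, and the curve of all measured genes at 45.1%.

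**Figure D2:**
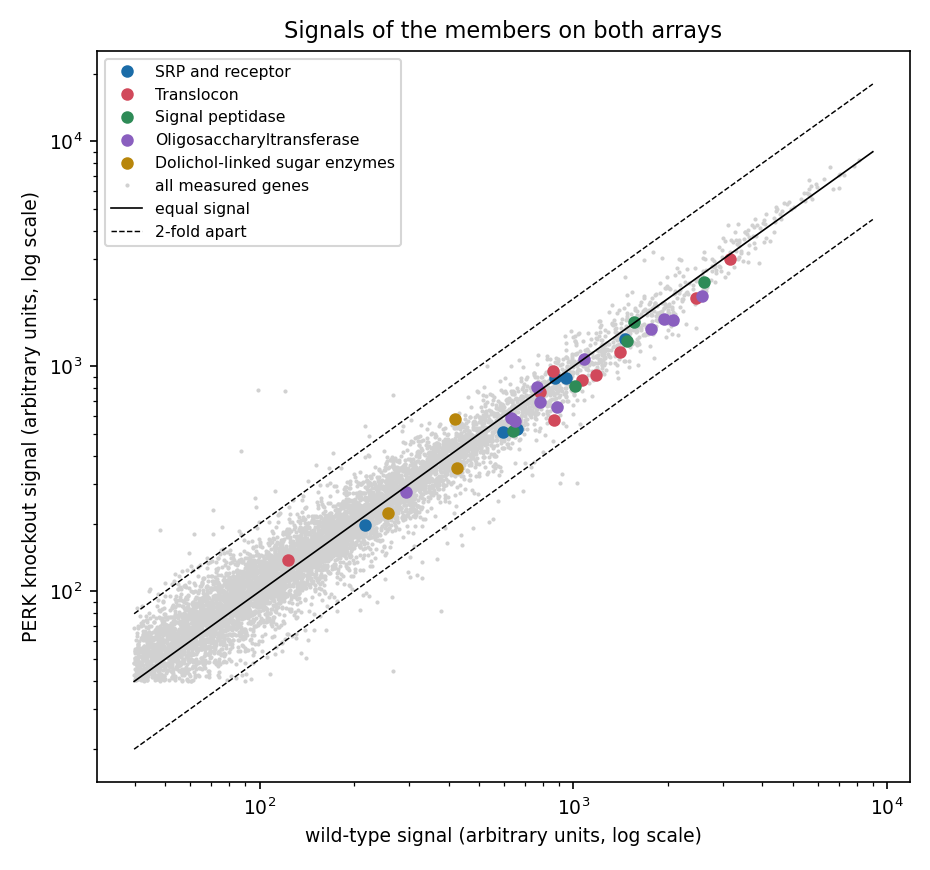
Knockout signal (vertical axis) against wild-type signal (horizontal axis), both in arbitrary units on log scales, with members coloured by complex over all measured genes in grey. The solid line marks equal signal and the dashed lines 2-fold differences, which no member crosses.

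SRP and its receptor had a median of -0.14 over 6 measured genes. Srp19, which binds the RNA backbone of the particle during its assembly, had a signal of 527.3 in the knockout and 659.2 in the wild type, a log2 ratio of -0.32. Srp68, another protein bound to that RNA, had 511.0 in the knockout and 595.1 in the wild type (-0.22). Each of these genes rests on a single probe set, and both were lower in the knockout. Srp9 and Srp14 form the pair that slows translation while the ribosome is delivered. Srp9 had 884.9 in the knockout and 949.2 in the wild type (-0.10), with -0.08 on its second probe set. Srp14 had 1320.5 in the knockout and 1461.0 in the wild type (-0.15), and its other probe sets ran from -0.14 to 0.06. Of the receptor's GTPase subunits, Srpr was nearer to level, and the ratio of Srprb lay between those of Srp9 and Srp14. Srpr, the subunit that docks SRP, had 891.2 in the knockout and 876.7 in the wild type (0.02). Srprb, its membrane anchor, had 197.8 in the knockout and 216.0 in the wild type (-0.13), with -0.13 and -0.03 on its other probe sets.

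The translocon had a median of -0.28 over 9 measured genes, which was -0.17 over all measured probe sets of each gene, and its members ran from -0.59 to 0.16. Its protein channel is formed by Sec61 subunits. Sec61a1, the pore subunit, had 911.9 in the knockout and 1179.7 in the wild type (-0.37). Its other measured probe sets gave -0.17, -0.01, 0.57 and -0.30, so that its probe sets disagreed more widely than those of any other member. Sec61b, a small channel subunit with 1 probe set, had 2009.3 in the knockout and 2450.0 in the wild type (-0.29). Tram1, a membrane protein that contacts entering chains, had 871.7 in the knockout and 1061.8 in the wild type (-0.28), with -0.23 on its second probe set. Sec62 and Sec63 serve chains that enter with little help from SRP, and Sec63 recruits the chaperone BiP. Neither was lower beyond the probe set SD. Sec62 had 768.8 in the knockout and 779.7 in the wild type, a ratio of -0.02. That of its second probe set, with 739.0 in the knockout and 684.1 in the wild type, was 0.11. The ratio of the first turned to 0.04 with quantile normalisation and to 0.02 with loess. Sec63 had 137.7 in the knockout and 123.0 in the wild type (0.16), with other probe sets from -0.12 to 0.30.

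The translocon-associated protein (TRAP) complex helps some signal peptides open the channel, and its 4 subunits did not share one ratio. Ssr1, the alpha subunit, had the lowest ratio of all members: 576.3 in the knockout and 864.5 in the wild type, a log2 ratio of -0.59. Its other probe sets gave -0.26 and -0.31, in the same direction and closer to 0. Ssr2, the beta subunit, had 1157.5 in the knockout and 1404.9 in the wild type (-0.28). Ssr3, the gamma subunit, was on the other side of equality, with 956.4 in the knockout and 860.6 in the wild type (0.15). Ssr4, the delta subunit, had 2990.8 in the knockout and 3149.6 in the wild type (-0.07), and its dimmer probe sets disagreed, at 0.36 and -0.33.

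The signal peptidase had a median of -0.19 over its 5 genes, 4 of them below 0. Spcs1 and Spcs2 are non-catalytic subunits with a second measured probe set each, and all their values were below 0. Spcs1 had 2374.4 in the knockout and 2609.6 in the wild type (-0.14), with -0.29 on the second probe set. Spcs2 had 1299.6 in the knockout and 1485.0 in the wild type (-0.19), with -0.23 on the second. Spcs3, a further subunit without catalytic activity, had 819.1 in the knockout and 1008.2 in the wild type (-0.30). The alternative catalytic subunits differed from each other in ratio. Sec11c had 516.8 in the knockout and 641.5 in the wild type (-0.31). Sec11a had 1582.6 in the knockout and 1555.9 in the wild type (0.02). The gap of 0.34 between these paralogs lay between the SD that probe set disagreement gives for such a difference over all genes, 0.36, and that over the members alone, 0.24.

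**Figure D3:**
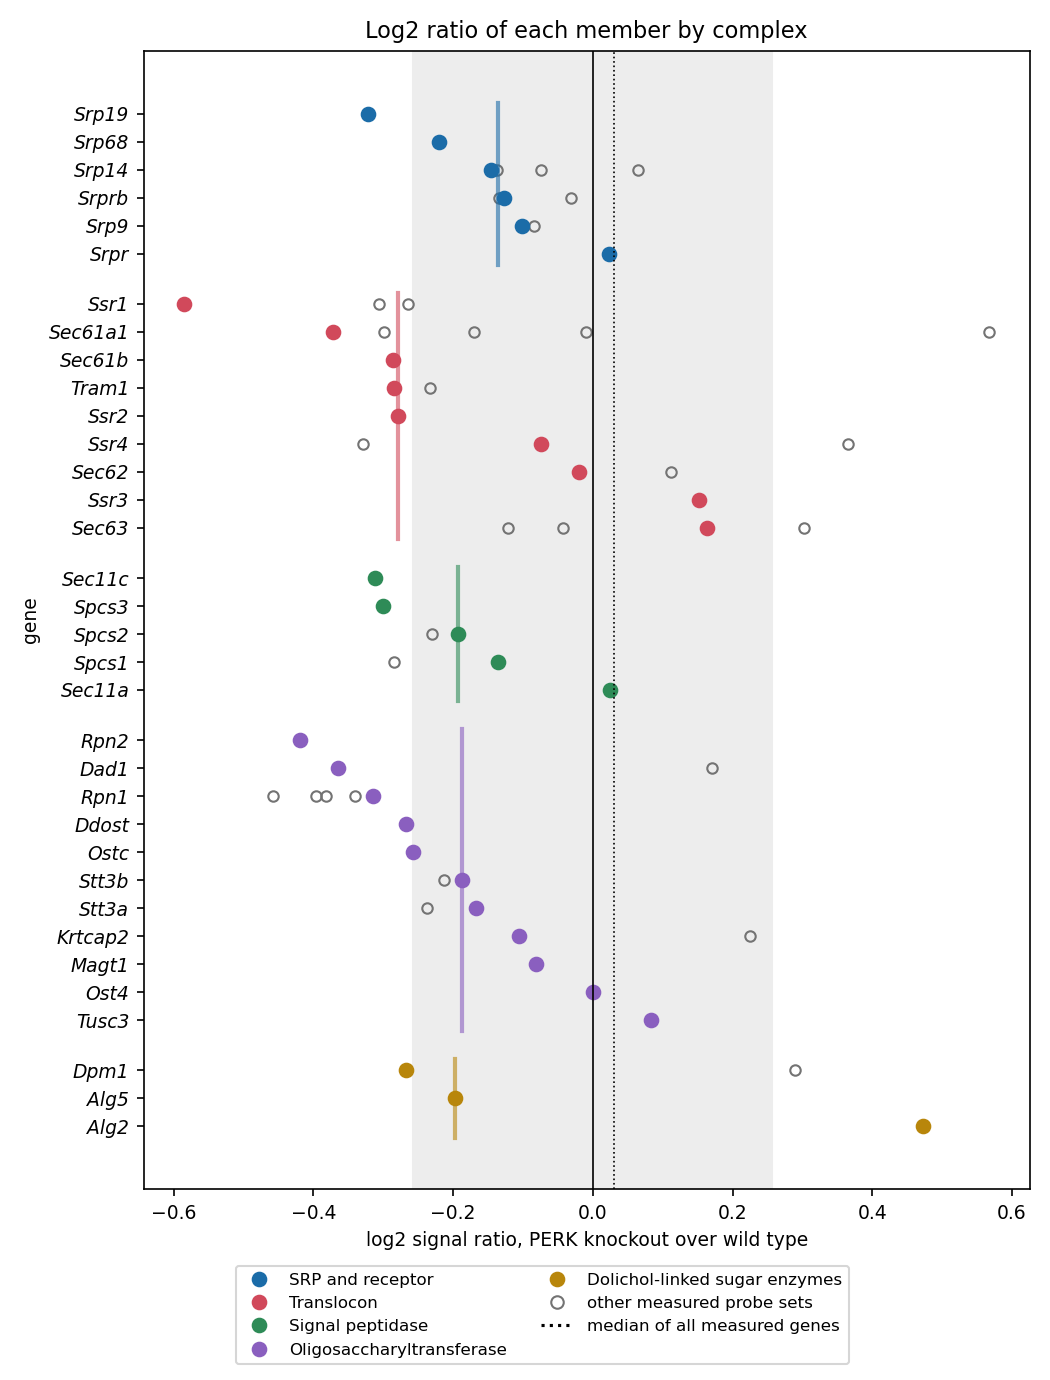
Log2 ratio of knockout over wild-type signal (horizontal axis) for each of the 34 members (vertical axis), grouped by complex and ordered by ratio. Filled points are the brightest probe sets, open points the other measured ones, coloured bars the complex medians, the grey band the probe set SD of 0.26 on each side of 0, and the dotted line the median of all measured genes. Most filled points lie left of 0, and Ssr1 at -0.59 and Alg2 at 0.47 are the ends.

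Of the 11 oligosaccharyltransferase genes, 9 had a ratio below 0, with a median of -0.19. Within the core shared by all forms of the enzyme, ratios ran from the lowest, in Rpn2, to level, in Ost4. Rpn2 (ribophorin II) had 662.7 in the knockout and 886.0 in the wild type (-0.42), on 1 probe set. Dad1, a small core subunit, had 1614.7 in the knockout and 2078.4 in the wild type (-0.36), but 0.17 on its second probe set. Rpn1 (ribophorin I), which presents substrates to the enzyme, was measured by 5 probe sets on the same side of 0. Its brightest probe set had 2063.1 in the knockout and 2565.1 in the wild type (-0.31), and its 4 others gave -0.40, -0.34, -0.46 and -0.38. All 5 were lower by more than the probe set SD, but they are assigned to the same gene, so they are not independent, and 4 of them are of the _x_at type, whose probes can match other transcripts. Ddost, another core subunit, had 1466.9 in the knockout and 1766.4 in the wild type (-0.27). Ost4, a very small subunit, was level, with 1083.9 in the knockout and 1083.4 in the wild type.

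The enzyme exists in a form built on Stt3a, which works at the translocon as the chain enters, and a form built on Stt3b, which also modifies sites that the first form skipped. These catalytic subunits had nearly the same ratio. Stt3a had 694.9 in the knockout and 780.0 in the wild type (-0.17), with -0.24 on its second measured probe set. Stt3b had 571.2 in the knockout and 650.5 in the wild type (-0.19), with -0.21 on its second. Accessory subunits of the Stt3a form were Ostc and Krtcap2. Ostc had 1628.4 in the knockout and 1945.8 in the wild type (-0.26). Krtcap2 had 587.4 in the knockout and 631.8 in the wild type (-0.11), but 0.22 on its second probe set. Those of the Stt3b form, the oxidoreductases Tusc3 and Magt1, were within 0.1 of level on the log2 scale. Tusc3 had 810.0 in the knockout and 764.7 in the wild type (0.08). Magt1 had 275.9 in the knockout and 292.0 in the wild type (-0.08). The paralogs Tusc3 and Magt1 differed by 0.16, under both SDs for a difference, 0.36 and 0.24.

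The 3 members among the enzymes that build the dolichol-linked sugar gave no common direction. Alg2, which adds mannoses to the growing tree, had the highest ratio of all members: 582.3 in the knockout and 419.5 in the wild type, a log2 ratio of 0.47 or 1.39-fold higher. Its other probe set was at the floor on both arrays. Alg5, which makes the glucose donor dolichyl-phosphate-glucose, had 223.1 in the knockout and 255.8 in the wild type (-0.20). Dpm1, the catalytic subunit for dolichyl-phosphate-mannose, had 353.0 in the knockout and 424.7 in the wild type (-0.27), but its dimmer probe set gave 0.29. The median of these 3 genes was -0.20 and their mean 0.00. Over all measured probe sets of each gene the median was 0.01.

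Set side by side, the medians of SRP with its receptor, the translocon, the signal peptidase and the oligosaccharyltransferase lay within 0.14 of each other. Their order was not tested and changed with the processing: over all measured probe sets of each gene the medians were -0.12, -0.17, -0.21 and -0.20. The check by other probe sets covered 17 members. Their 30 other measured probe sets had a median ratio of -0.14, with 22 below 0 and 21 on the same side of 0 as the brightest one. Over all genes, 44.2% of such other probe sets were below 0, with a median of 0.04. The share on the same side as the brightest probe set was not counted over all genes. Several of the 30 belong to the same gene, so they are not independent. For the 2 brightest probe sets of a member, the SD of their difference was 0.24 over 17 members. That is 0.17 for a single probe set.

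Further genes of ER entry and N-glycosylation, listed by function, were in part lower and in part level. Of 73 such genes 58 were measured, with a median ratio of -0.10. A ratio below 0 was found for 39 of these (67.2%), against 45.1% of all measured genes, a background that applies to each list. The other dolichol and lipid-linked sugar enzymes had 12 of 13 measured genes below 0 on their brightest probe sets, with a median of -0.21. Other measured probe sets were above 0 for Dhdds (0.22 to 0.33) and Nus1 (0.05 to 0.38). They ran from -0.39 to 0.06 for Srd5a3 and from -0.004 to 0.58 for Alg12, and that of Alg14 gave -0.09. The remaining genes of this list had no other measured probe set. Mpdu1, needed to use dolichol-linked mannose and glucose, had 145.7 in the knockout and 221.6 in the wild type (-0.60, or 1.52-fold lower). Glycan trimming enzymes and lectins had 11 of 13 genes below 0 and a median of -0.13. Among them Edem1, which directs misfolded glycoproteins to degradation, had 115.4 in the knockout and 176.6 in the wild type (-0.61), and 0.13 on its second probe set. Of 5 genes of the translocon for multipass membrane proteins, 4 were below 0, with a median of -0.23. Tmco1 there had 515.1 in the knockout and 778.8 in the wild type (-0.60), and Ncln had 127.5 in the knockout and 67.9 in the wild type (0.91).

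The other branches had medians nearer to or above 0, over few genes each. Sugar donor synthesis had 4 of 9 genes below 0 and a median of 0.04, and its most distant gene was Ugp2, which makes UDP-glucose, with 379.3 in the knockout and 303.9 in the wild type (0.32). The ER membrane complex, which inserts membrane proteins, had 3 of 8 below 0 and a median of 0.11, with Emc8 the most distant at 226.4 in the knockout and 268.7 in the wild type (-0.25). Tail anchor insertion genes had 3 of 5 below 0, with a median of -0.03 but a mean of -0.13. Sgta, named after its values were seen, had 288.2 in the knockout and 353.2 in the wild type (-0.29). Get4, a cytosolic factor of that route, had 313.6 in the knockout and 464.9 in the wild type (-0.57), but -0.10 on its second probe set. The remaining translocation genes had 2 of 5 below 0 and a median of 0.03. Their most distant gene was Btf3, a subunit of the nascent polypeptide-associated complex, with 1455.7 in the knockout and 1257.4 in the wild type (0.21).

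**Figure D4:**
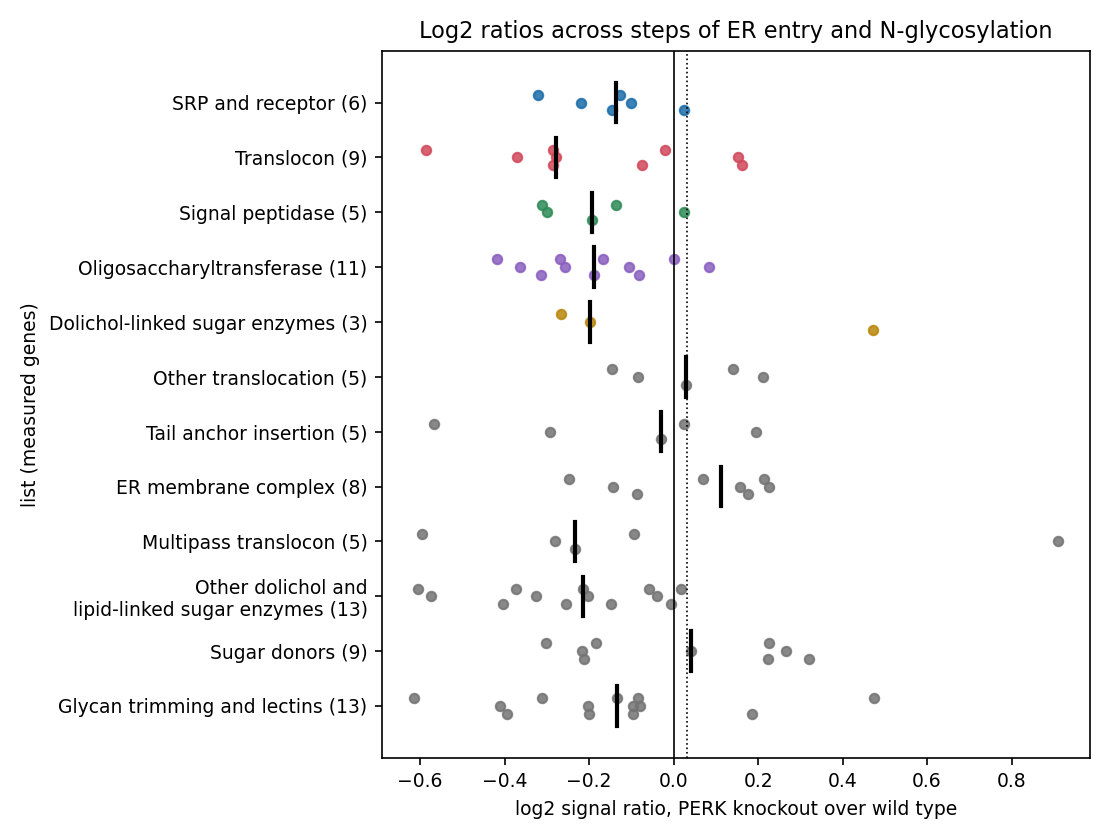
Log2 ratio of knockout over wild-type signal (horizontal axis) of each measured gene in the 5 member groups, in colour, and the 7 further lists, in grey, with the number of measured genes in parentheses. Black bars are list medians and the dotted line is the median of all measured genes; sugar donors and the ER membrane complex have medians above 0, at 0.04 and 0.11.

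The label and make-up of the 2 preparations bear on these values. Eif2ak3 had 58.7 in the knockout and 117.7 in the wild type (2.01-fold lower) on its 1 measured probe set, and the exons deleted are not given in the sources used. Islet endocrine genes were bright on both arrays, with a summed signal of 45704.7 in the knockout and 45582.2 in the wild type over 11 measured genes, and a median ratio of -0.13. Such sums are carried by the brightest genes, here up to 7732.9 in the knockout (Ppy), and say little about dimmer ones. The beta cell list had 5 of 6 measured genes below 0, a median of -0.46, and sums of 14831.6 in the knockout and 16479.3 in the wild type. Only Ins2 was above 0 there, at 0.12. Ins2, Iapp, Pdx1 and Nkx6-1 are also in the islet endocrine list, so these lists are not separate. The acinar list had sums of 44217.8 in the knockout and 42272.6 in the wild type, with 3 of 13 measured genes below 0 and a median of 0.07. All 11 measured immune markers were above 0 on their brightest probe sets, with a median of 0.87. Sums over the list were 4041.6 in the knockout and 1514.9 in the wild type. Csf1r was near level at 0.07, with -0.08 and -0.01 on its other probe sets. Those of C1qb ran from 0.10 to 0.88 and that of H2-Aa gave 0.69, and the remaining measured markers had none. Another 3 immune markers, Ptprc, C1qc and H2-Ab1, were above the floor in the knockout and at the floor in the wild type. All 7 measured proliferation genes were below 0, with a median of -1.41 and sums of 957.9 in the knockout and 2530.0 in the wild type. Their other measured probe sets gave -1.12 for Ccna2, -1.46 to -0.37 for Rrm2 and -0.40 for Mcm2, and the remaining genes had none. Endothelial, mesenchymal and duct markers had medians of -0.10, 0.08 and -0.01, and the acinar factor Rbpjl and the duct channel Cftr were at the floor on both arrays. As a guide to RNA quality, the 3' over 5' signal of the beta-actin control probe sets was 2.01 in the knockout and 1.61 in the wild type. That of the Gapdh control probe sets was 0.867 in the knockout and 1.01 in the wild type. The part of cell make-up and of RNA quality in the ratios of the translocation genes was not tested.

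Because many members lay on the same side of 0, their promoters were searched for letters recognised by regulators of the unfolded protein response. Promoter windows from RefSeq (GRCm38.p6), 250 bases before to 50 after a gene start, were at hand for 27 of the 37 members, of which 24 were measured. The ER stress response element (ERSE), which is CCAAT and CCACG with 9 bases of any kind between them, was found in 0 of these 24, against 0.212% of 6606 measured genes with a window. The element TGACGTGG (UPRE) was in 0, against 1.06%, and TGATGCAAT, one form of ATF4 site, was in 0, against 0.136%. With shares this low, 0 in 24 windows is the usual outcome, so these counts cannot tell members from other genes. The related element ERSE-II, which is ATTGG and CCACG with 1 base between them, was in Krtcap2 alone, as ATTGGACCACG starting 17 bases after one of its annotated starts, against 0.106%. All motifs were searched on both strands. The short box CCAAT, which is part of ERSE and, as its reverse complement ATTGG, of ERSE-II, was in 14 of the 24 measured members (58.3%), against 42.5% of measured genes. The core ACGTG, part of UPRE and added after values were seen, was in 11 of 24 (45.8%), against 29.6%. Both cores were found in members on either side of equality.

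The 250 bases before the gene start are shown for the members with a window that had the lowest ratios, Ssr1 and Rpn2, and for Sec63, which had the highest, so that the ends of the range can be compared. Capitals mark CCAAT and ACGTG on either strand. The Ssr1 window is chr13:37994209-37994458 on the minus strand, that of Rpn2 is the first of its starts, chr2:157278848-157279097 on the plus strand, and that of Sec63 is chr10:42761246-42761495 on the plus strand.
Ssr1: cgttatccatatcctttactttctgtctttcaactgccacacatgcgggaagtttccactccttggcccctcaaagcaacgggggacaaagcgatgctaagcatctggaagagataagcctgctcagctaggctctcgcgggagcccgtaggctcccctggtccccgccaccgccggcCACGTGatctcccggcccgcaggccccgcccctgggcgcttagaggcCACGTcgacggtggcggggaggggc
Rpn2: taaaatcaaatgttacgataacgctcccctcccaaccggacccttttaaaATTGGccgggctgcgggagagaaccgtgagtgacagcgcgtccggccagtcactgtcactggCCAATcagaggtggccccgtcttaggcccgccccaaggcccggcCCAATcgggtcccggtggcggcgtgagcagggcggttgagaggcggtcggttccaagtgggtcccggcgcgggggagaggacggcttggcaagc
Sec63: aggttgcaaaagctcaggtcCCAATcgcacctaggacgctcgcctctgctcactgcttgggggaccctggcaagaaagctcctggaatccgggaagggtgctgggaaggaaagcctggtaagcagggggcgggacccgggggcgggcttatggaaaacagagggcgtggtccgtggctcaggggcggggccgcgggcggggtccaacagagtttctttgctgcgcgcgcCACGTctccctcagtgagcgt
Ssr1, at -0.59, had no CCAAT but ACGTG cores within CACGTG and further along as CACGT. Rpn2, at -0.42, had 3 CCAAT boxes and no ACGTG core. Sec63, at 0.16, had 1 of each. Neither core was thus common to both of the lowest members. A match is a string of letters, and these data hold no measurement of binding.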

How the data were processed

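Islet RNA of PERK knockout and PERK wild-type mice was measured on 1 array each. The values the authors deposited are intensities on a linear scale, 1 per probe set. GCOS 1.02 is the tool in the submitters' processing notes, and how background was corrected and probes were summarised is not given in these sources. Intensities had the same 2% trimmed mean on both arrays (150.1), so they had been scaled already.

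From these 22690 values, the knockout array was set to that trimmed mean (factor 1.00), a floor was set at the 40th percentile of the pooled signals (39.8), and log2 of knockout over wild type was taken. Probe sets with 1 gene in the platform annotation (20393, against 691 with several and 1606 with none) were used, without the 64 Affymetrix control probe sets, and the brightest stood for its gene. Genes above the floor on both arrays were called measured (8133). The error is the SD of the difference between a gene's 2 brightest measured probe sets over the square root of 2. Older symbols of the further pathway lists were matched through gene IDs of the RefSeq table. No test was possible, and the number of arrays limits the precision. The calculation was tested on simulated data. Members and lists were chosen with earlier results of these data known. All members are named, with, in each further list, genes at least 1.5-fold apart or else the most distant one. Sgta, and the dolichol pathway genes given with their other probe sets, were added to these after values were seen. Alternatives covered scaling, floor and probe set choice. Python 3.11.15, numpy 2.4.6, pandas 2.3.3, scipy 1.17.1 and statsmodels 0.14.6 were used.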

Additional observations from a re-analysis of the deposited data

How the results depend on the processing

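Scaling, floor and probe set choice were each varied, giving 9 alternatives, and a look at only the brightest 25% of measured genes was added after seeing the data. A median was taken as moved when it changed by more than the probe set SD over the square root of its number of genes. The median of the members lay between -0.22 and -0.16, 24 to 30 members were below 0, and 0 members were 2-fold apart under any of these alternatives. The count lower by at least 0.32 on the log2 scale was 8, against 5 as reported, after median centring and 3 with the median over a gene's measured probe sets. As a share of members this was 23.5% after median centring, against 12.7% of all measured genes. It was not above the background with the median over probe sets (8.82%, against 9.57%), quantile normalisation (11.8%, against 12.6%) or loess (11.8%, against 12.9%). With the median over a gene's measured probe sets the translocon median was -0.17, that of the dolichol-linked sugar enzymes 0.011, and Dpm1 0.011, whose probe sets lie on both sides of 0. Under the same choice Ssr1 was at -0.31 and Dad1 at -0.10, and Ssr4 was at 0.36 without its _s_at probe sets. Among the brightest 25%, the dolichol-linked median was 0.10, over the 2 genes left there. The cause of the other changes was not tested. Srpr, Sec11a and Ost4 turned just below 0 after median centring, at -0.01, -0.01 and -0.03. No paired analysis was possible because each genotype had 1 array. No value here has a replicate, so differences between animals or litters cannot be told apart from genotype.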
